A study of Mus musculus with 8 samples.

Results

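Genes of the red cell lineage were followed here through RNA-seq libraries made from mouse splenic B cells. The members were 29 symbols, taken by name from the authors' table of counts per gene: globins, enzymes of haem synthesis, membrane, blood group and carbonic anhydrase genes, and erythroid regulators. Of these, 28 were among the 41342 named entries of the table, and all 28 were also among the 14744 genes that passed the filter on low counts and were tested. Ahsp, which encodes the chaperone of free alpha globin, is not analysed here. All 28 had counts in every resting library.

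Splenic B cells of 4 genotypes were compared in 2 states, with a single library of RNA per combination. Wild-type mice and mice homozygous for the 3'RR deletion, the hs3b-hs4 deletion or the 3'PAL deletion were used, all on a mixed background named in the labels as 129/C58BL/6. The 3'RR is a group of enhancers at the downstream end of the heavy chain antibody locus, and hs3b and hs4 belong to it. The labels give the 3'PAL deletion by name only. Each library came from cells pooled from 4 animals, and the sources used here give no ages. Resting cells were taken after a density gradient and depletion of cells carrying CD43, and stimulated cells were cultured for 48 h with 5 µg/mL lipopolysaccharide and passed over a second gradient. No cultured library without lipopolysaccharide is among the samples, so the agent, the time in culture and the second gradient cannot be told apart. The selection removes cells that carry CD43 and does not select for a B cell protein.

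Red cells arise from progenitors that switch on globin, haem and membrane skeleton genes under the transcription factors Gata1, Klf1, Tal1 and Nfe2. The late precursors lose the nucleus and become reticulocytes, which still carry RNA for haemoglobin and membrane proteins before they mature. In the mouse the spleen makes red cells as well as clearing old ones, and erythropoiesis there expands under anaemia or infection. Haemoglobin holds alpha and beta globin chains with haem, and the membrane is held by a spectrin lattice that is anchored through ankyrin and protein 4.2 to band 3.

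Promoter sequences show how far the members share the letters that erythroid factors are known to bind. RefSeq starts (GRCm38.p6) were used for 21 of the 28 members, with 24 windows of 300 bases, from 250 before to 50 after the start. The remaining members, Fech among them, have no window here, so the shares below do not cover them. Searched on both strands were a GATA motif, AGATAA (reverse TTATCT), and a CACCC box, CACCC (reverse GGGTG). A match of one cannot overlap a match of the other. The GATA motif was in 10 of the 24 windows (41.7%), against 11.2% of all 32851 windows of that length. The CACCC box was in 20 of the 24 (83.3%), against 57.5% of all, and both were in 8 of the 24 (33.3%), against 5.43%. Shown are 6 of the 8 windows with both motifs, matches in capitals, each in the direction of transcription. Hbb-bs and Alas2 are shown for the haemoglobin genes, Rhd, Kel and Trim10 for genes with large differences between genotypes, and Tmcc2 for a start inside the gene. They lie at chr7:103827879-103828178 (minus strand, Hbb-bs), chrX:150547167-150547466 (plus, Alas2), chr4:134864286-134864585 (plus, Rhd), chr6:41704276-41704575 (minus, Kel), chr17:36869324-36869623 (plus, Trim10) and chr1:132367899-132368198 (minus, Tmcc2).
Hbb-bs: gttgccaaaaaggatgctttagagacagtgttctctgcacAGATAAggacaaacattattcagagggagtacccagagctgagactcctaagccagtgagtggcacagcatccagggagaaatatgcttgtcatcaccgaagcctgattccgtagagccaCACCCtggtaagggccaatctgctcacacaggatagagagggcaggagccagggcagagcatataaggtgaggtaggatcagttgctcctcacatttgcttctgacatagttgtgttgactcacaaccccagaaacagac
Alas2: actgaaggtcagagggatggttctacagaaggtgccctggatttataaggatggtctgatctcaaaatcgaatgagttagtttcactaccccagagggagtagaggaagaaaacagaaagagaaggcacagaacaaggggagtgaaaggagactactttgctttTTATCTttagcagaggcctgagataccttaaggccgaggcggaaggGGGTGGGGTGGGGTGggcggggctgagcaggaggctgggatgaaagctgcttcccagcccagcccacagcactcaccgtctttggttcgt
Rhd: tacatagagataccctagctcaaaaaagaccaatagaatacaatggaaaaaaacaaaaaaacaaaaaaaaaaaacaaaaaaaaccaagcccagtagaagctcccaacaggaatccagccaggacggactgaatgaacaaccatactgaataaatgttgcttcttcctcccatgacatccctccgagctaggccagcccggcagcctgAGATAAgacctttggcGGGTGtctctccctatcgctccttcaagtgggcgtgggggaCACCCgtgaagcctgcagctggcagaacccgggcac
Kel: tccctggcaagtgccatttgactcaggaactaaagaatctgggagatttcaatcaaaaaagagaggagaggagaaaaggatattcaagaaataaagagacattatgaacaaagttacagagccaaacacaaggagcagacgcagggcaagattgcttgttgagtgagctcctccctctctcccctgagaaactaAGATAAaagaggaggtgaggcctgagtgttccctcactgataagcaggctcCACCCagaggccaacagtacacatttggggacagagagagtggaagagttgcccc
Trim10: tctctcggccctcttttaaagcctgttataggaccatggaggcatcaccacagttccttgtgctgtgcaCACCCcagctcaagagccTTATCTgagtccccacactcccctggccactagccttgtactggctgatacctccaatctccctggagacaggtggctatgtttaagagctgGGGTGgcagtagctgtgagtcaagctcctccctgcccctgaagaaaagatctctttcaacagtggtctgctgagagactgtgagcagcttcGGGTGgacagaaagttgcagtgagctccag
Tmcc2: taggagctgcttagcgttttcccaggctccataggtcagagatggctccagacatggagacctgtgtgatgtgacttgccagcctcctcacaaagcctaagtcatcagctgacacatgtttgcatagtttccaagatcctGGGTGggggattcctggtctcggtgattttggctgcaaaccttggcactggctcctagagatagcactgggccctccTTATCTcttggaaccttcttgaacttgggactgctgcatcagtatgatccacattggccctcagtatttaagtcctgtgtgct
A match describes the sequence only and was not tested as a binding site.

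Total counts ran from 17883683 to 28785192 per library. The wild-type resting library was the shallowest and stood apart in AY036118, a transcript that took 1.94% of its counts and at most 0.0842% in the other libraries. Every ratio of a resting mutant to wild-type below rests on that library. The 11 B cell markers summed to 9279, 9016, 10827 and 9866 CPM in the resting libraries, where CPM is counts per 1000000 counts, with library sizes scaled by edgeR's TMM factors. Here and below, sets of 4 values are in the order wild-type, 3'RR deletion, hs3b-hs4 deletion, 3'PAL deletion. In RNA from mixed cells, fewer red cell precursors and less RNA per precursor cannot be told apart. With 1 library per genotype and state, intervals in brackets are exact 95% intervals that cover counting error only.

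The members took 0.342 to 2.14% of all counts in the resting libraries and 0.0037 to 0.0278% in the stimulated ones. The 4 adult globin genes supplied most of this. Summed, they stood at 2989, 12538, 10344 and 20414 CPM in the resting libraries. In the stimulated libraries they stood at 10.1, 154, 42.7 and 237 CPM. The wild-type library was the lowest and the 3'PAL library the highest in both states, and no stimulated value reached a resting one. The other 24 members summed to 146, 1580, 436 and 1937 CPM at rest and to 28.1, 45.6, 45.9 and 39.7 CPM after stimulation.

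**Figure D1:**
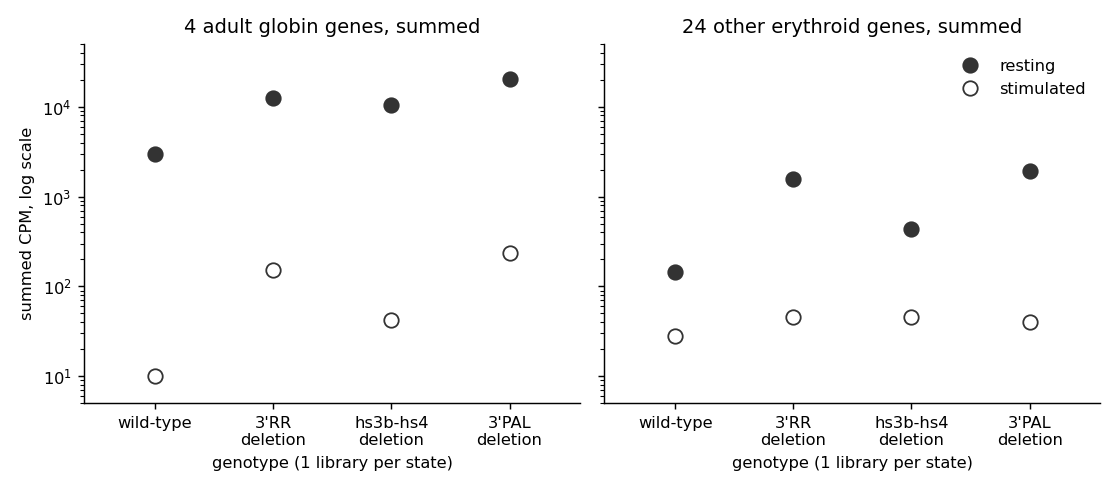
Summed CPM (log axis) of the 4 adult globin genes (left) and of the 24 other erythroid genes (right) by genotype, 1 library per point, filled for resting and open for stimulated. Resting globin sums run from 2989 to 20414 CPM, while the other genes split into a low pair (146 and 436 CPM) and a high pair (1580 and 1937 CPM).

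Among the globins, the alpha chain genes Hba-a1 and Hba-a2 (chr11:32283511-32284465 and chr11:32296489-32297298) and the beta chain genes Hbb-bs and Hbb-bt (chr7:103826534-103828096 and chr7:103812524-103813996) were all counted. Alpha genes held 40.4 to 44.2% of the globin counts in the 8 libraries. The coding sequences of Hba-a1 and Hba-a2 differ at 1 of 426 bases (99.8% identity), and those of Hbb-bs and Hbb-bt at 1 of 441 (99.8%). The split between copies is therefore uncertain. Hba-a2 held 18.1% of the alpha counts in the wild-type resting library by gene counts and 53.6% by kallisto estimated counts. Hbb-bt held 11.9, 18.6, 15.0 and 15.0% of the resting beta counts by gene counts, and 9.33, 25.1, 11.6 and 11.8% by kallisto. The 3'RR library had the highest share of Hbb-bt by either count.

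Per kilobase of exon, Hbb-bs and Hba-a1 ranked first and second of the 28 in every resting library. Hbb-bs stood at 1725, 6723, 5842 and 11916 CPM per kilobase. Alas2, the first enzyme of haem synthesis in erythroid cells, stood at 24.1, 106, 74.8 and 170 CPM per kilobase and followed the globins in all but the 3'RR library, where Car2 stood just above it at 107. The order below the globins differed between libraries. Fech ranked above Slc4a1 in the wild-type library (9.32 against 3.34 CPM per kilobase) and in the hs3b-hs4 library (20.6 against 11.7). It ranked below Slc4a1 in the 3'RR library (32.7 against 75.2) and in the 3'PAL library (52.2 against 88.7). The transcription factor Gata1 and the erythropoietin receptor Epor were among the lowest, with Gata1 at 0.189, 2.27, 0.332 and 2.02 CPM per kilobase.

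**Figure D2:**
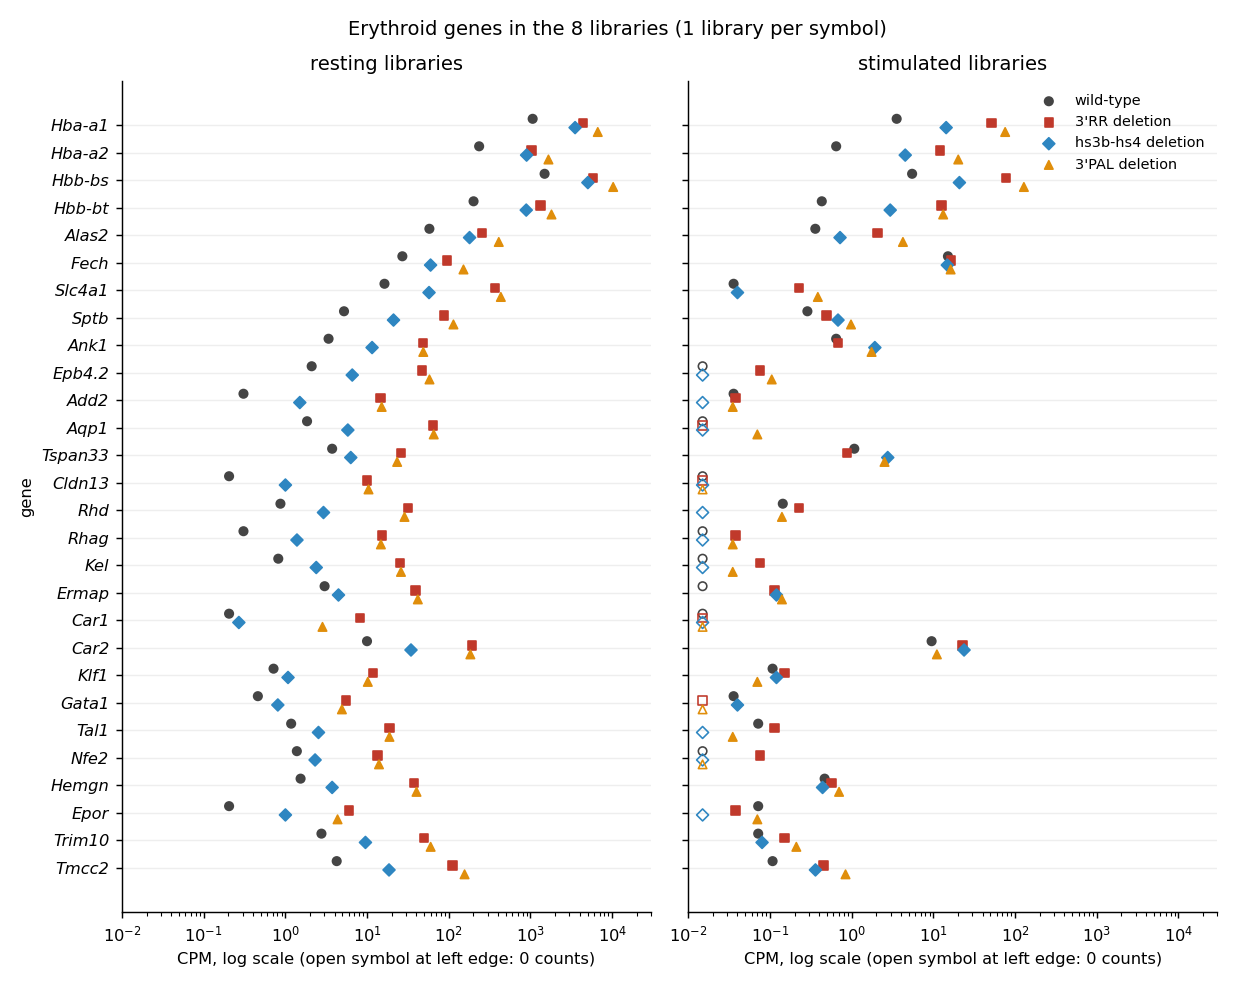
CPM (log axis) of each of the 28 erythroid genes in the 4 resting (left) and 4 stimulated (right) libraries, with 1 symbol per genotype. Open symbols at the left edge mark libraries with 0 counts, and Fech and Car2 keep 9.53 to 23.8 CPM in every stimulated library.

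Stimulated libraries were then compared with resting ones over the 4 genotypes, in a fit with genotype and state as terms. All 28 members fell (edgeR's quasi-likelihood test, Benjamini-Hochberg adjusted over all genes tested, threshold 0.05), where 34.1% of all genes tested fell. Their median log2 fold change was -7.21, against 0.01 over all genes tested. Car1 and Cldn13 had no count in any stimulated library, so their fitted changes depend on the prior count. Against a floor of 3 counts over the 4 stimulated libraries they were at least 116-fold and 209-fold lower, and with both at that bound the median was -7.15.

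Band 3 (Slc4a1), the anion exchanger of the red cell membrane, had 319, 10577, 1488 and 10663 counts at rest and 1, 6, 1 and 11 after stimulation. Its log2 fold change was -10.25 ± 0.18 (SE, adjusted p = 9e-07). The water channel Aqp1 had 36, 1846, 151 and 1609 counts at rest and was at 0 in every stimulated library except the 3'PAL one, which had 2. Both genes were thus near the limit of detection after stimulation. Alas2 went from 57.9, 256, 180 and 409 CPM to 0.359, 2.08, 0.722 and 4.25 CPM (log2 fold change -7.06 ± 0.22, adjusted p = 2.2e-06). Hbb-bs changed by -7.10 ± 0.43 on the log2 scale (adjusted p = 1.4e-05). The stimulated libraries of Alas2 kept the order of the resting ones, from wild-type as the lowest to 3'PAL as the highest.

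The globin RNA left after stimulation differed between the libraries. Summed globin CPM after stimulation was 0.339% [0.301 to 0.381] of the resting value in the wild-type and 0.413% [0.388 to 0.438] in the hs3b-hs4 libraries. It was 1.23% [1.19 to 1.27] in the 3'RR and 1.16% [1.14 to 1.19] in the 3'PAL libraries. These are single pools, and the difference between genotypes was not tested.

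The smallest falls were those of Car2, Fech, Tspan33 and Ank1. Car2, a carbonic anhydrase of red cells and of other cell types, stood at 9.99, 191, 34.5 and 184 CPM at rest and at 9.53, 22.7, 23.8 and 11.1 CPM after stimulation (log2 fold change -1.98 ± 0.69, adjusted p = 0.035). In the wild-type pair, Car2 after stimulation was 95.4% [79.0 to 115] of its resting level. Fech, which inserts iron into the haem ring in most cell types, stood at 27.0, 94.8, 59.9 and 151 CPM at rest. After stimulation it stood at 15.1, 16.4, 14.8 and 16.3 CPM (log2 fold change -2.17 ± 0.35, adjusted p = 0.00099). The stimulated values of Fech lay within a narrow range although the resting values spread widely. The tetraspanin Tspan33 (log2 fold change -2.76 ± 0.56, adjusted p = 0.0032) and ankyrin-1, Ank1 (-4.11 ± 0.60, adjusted p = 0.0006), fell less than the remaining members. Car2 and Fech together made 87.5, 85.8, 84.1 and 68.8% of the counts of the 24 other members in the stimulated libraries.

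The factors Klf1, Gata1, Tal1 and Nfe2 were at 4 counts or fewer in every stimulated library. At rest, Klf1 had 14, 340, 28 and 251 counts and Gata1 had 9, 159, 21 and 121. Klf1 fell by 5.42 on the log2 scale (adjusted p = 0.00019), and Gata1 fell by 6.85 (adjusted p = 0.00014). The nuclear protein gene Hemgn kept 11 to 20 counts in each stimulated library. In all, 8, 4, 11 and 4 of the 28 members had no count after stimulation.

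Genotypes were compared next, first at rest, where the members were abundant enough to be read one by one. Every one of the 28 was higher in each mutant resting library than in the wild-type one. The ratio to wild-type had a median over the members of 17.3 in the 3'RR library (range 3.50 to 49.6) and of 17.2 in the 3'PAL library (5.60 to 50.8). It had a median of 3.34 in the hs3b-hs4 library (1.32 to 4.89). The interval lay above 1 for 28, 25 and 28 members in the 3'RR, hs3b-hs4 and 3'PAL libraries, and Car1, Klf1 and Gata1 were the exceptions in hs3b-hs4. In these 3 libraries 28, 22 and 28 of the 28 members were at least 2-fold higher. Among all genes tested, 9.67, 6.99 and 5.81% were. All 3 ratios share the wild-type library as denominator.

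Globin and haem genes had the lowest ratios of the members in the 3'RR library. The summed globins were 4.19 [4.16 to 4.23] times the wild-type level in the 3'RR library, 3.46 [3.43 to 3.49] in hs3b-hs4 and 6.83 [6.77 to 6.89] in 3'PAL. Alas2 had ratios of 4.42, 3.10 and 7.07, and Fech of 3.50, 2.21 and 5.60. For these 6 genes the hs3b-hs4 library was closer in ratio to the 3'RR library than to the wild-type one.

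Membrane and blood group genes showed another pattern. Slc4a1 stood at 16.3, 368, 57.4 and 434 CPM, which gave ratios to wild-type of 22.5 [20.1 to 25.2], 3.51 [3.11 to 3.97] and 26.6 [23.8 to 29.8]. Beta spectrin, Sptb, stood at 5.23, 87.1, 21.1 and 114 CPM. Protein 4.2, Epb4.2, which ties ankyrin to band 3, stood at 2.10, 46.9, 6.59 and 58.1 CPM. In all 3 genes the 3'RR and 3'PAL libraries lay close together and the hs3b-hs4 library lay well below both. Rhag and Rhd, which encode proteins of the Rh complex, had ratios of 49.6 and 36.2 in the 3'RR library and of 48.1 and 33.0 in the 3'PAL library. In the hs3b-hs4 library they had ratios of 4.51 and 3.36. Kel, a blood group protein with an endopeptidase domain, stood at 0.820, 25.3, 2.39 and 26.0 CPM, and Ermap, which carries the Scianna antigens, at 3.02, 39.0, 4.47 and 41.8. Beta adducin (Add2) and the claudin gene Cldn13 had wide intervals, with wild-type counts of 6 and 4. Tspan33 was the membrane gene with the smallest ratios, at 6.97, 1.69 and 6.25.

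The regulators followed the membrane genes. Tal1, a partner of Gata1, stood at 1.18, 18.9, 2.54 and 18.8 CPM, and Nfe2 at 1.38, 13.5, 2.31 and 14.0 CPM. Hemgn stood at 1.54, 37.4, 3.74 and 40.3 CPM. Klf1, an activator of the adult beta globin gene, stood at 0.717, 11.8, 1.08 and 10.2 CPM. For each of these genes the counting intervals of the 3'RR and 3'PAL ratios to wild-type overlapped. Both ratios share the few wild-type counts, which widen both intervals, so the overlap cannot show whether 3'RR and 3'PAL differ. Epor rested on 4 wild-type counts and on 173, 26 and 107 counts in the mutants. Trim10, a gene of terminal erythroid development, had 54, 1432, 248 and 1475 counts. Car1, the other carbonic anhydrase gene, had 4, 237, 7 and 70 counts and was the member in which the 3'RR library most exceeded the 3'PAL library.

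**Figure D3:**
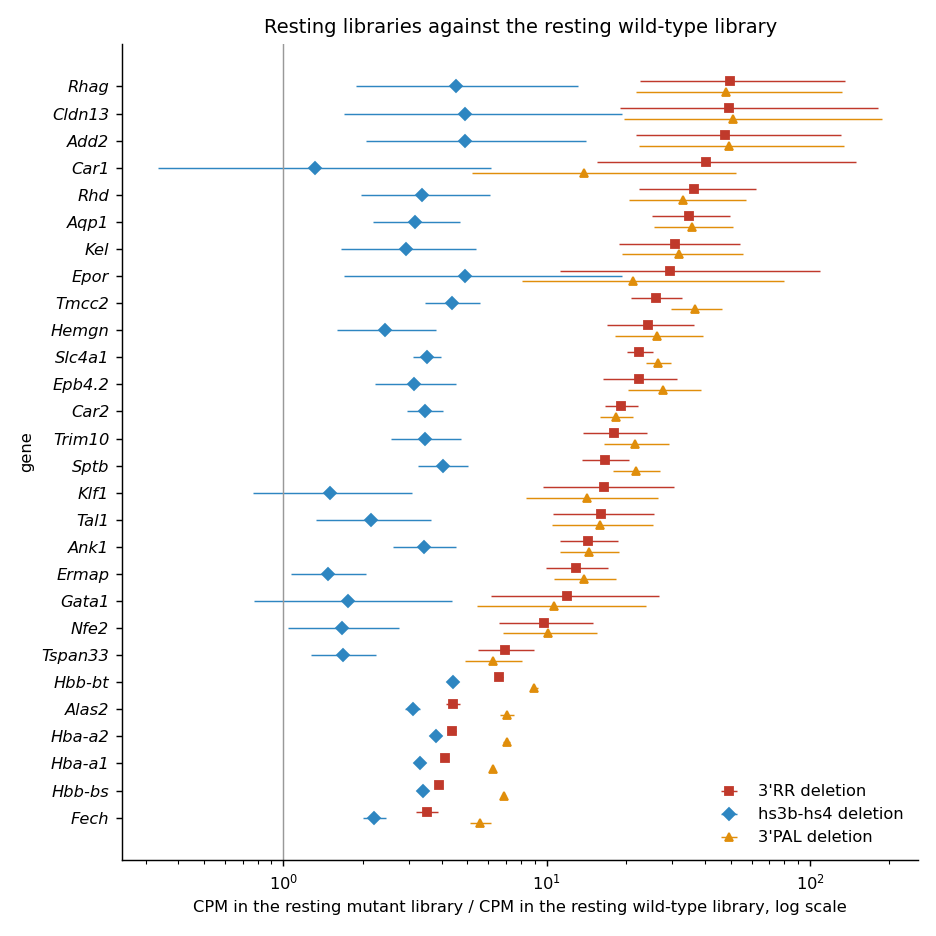
Ratio of the resting mutant library to the resting wild-type library (log axis) for each of the 28 erythroid genes, with exact 95% counting intervals. In the 3'RR library the other 22 genes lie above the 4 globins, Alas2 and Fech, and the hs3b-hs4 ratios stay between 1.32 and 4.89.

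The make-up of the erythroid RNA therefore differed between libraries, which was read within each library as counts per 1000 adult globin counts. The 24 other members held 48.8 [47.0 to 50.7] per 1000 in the wild-type resting library, 126 in 3'RR, 42.2 in hs3b-hs4 and 94.9 in 3'PAL. Slc4a1 held 5.47, 29.3, 5.55 and 21.3 per 1000, and Alas2 held 19.4, 20.4, 17.4 and 20.1. Band 3 RNA per globin RNA was thus nearly the same in the wild-type and hs3b-hs4 libraries, and Alas2 per globin was alike in all 4. Of the 24 other members, 22 were higher per globin count in both the 3'RR and 3'PAL libraries than in both wild-type and hs3b-hs4. Fech and Tspan33 were not. Any excess was counted, so the 22 include Alas2, at 1.05 and 1.03 times wild-type in 3'RR and 3'PAL. No share over all genes is given for this count. Relative to wild-type, the median over the 24 was 4.95 in 3'RR, 3.14 in 3'PAL and 0.909 in hs3b-hs4, where 17 of the 24 were below the wild-type value. The scaling of the libraries does not enter these ratios, which have no replicate.

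**Figure D4:**
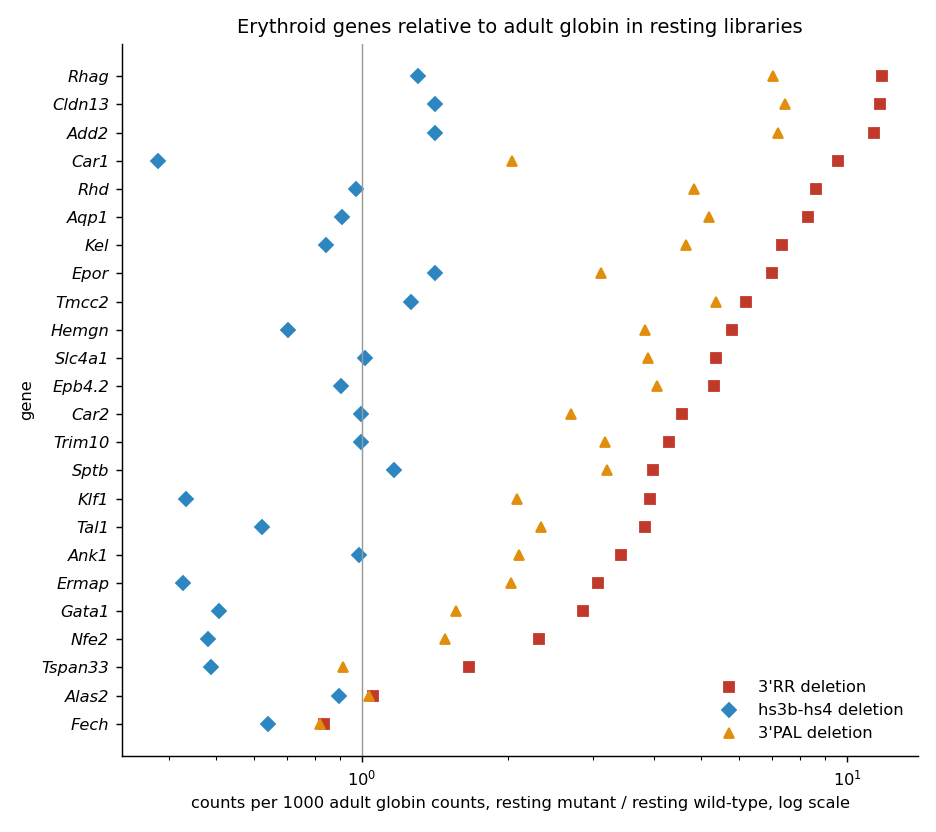
Counts per 1000 adult globin counts in each resting mutant library relative to the resting wild-type library (log axis), for the 24 erythroid genes that are not globins, 1 library per symbol. Alas2 and Fech lie near or below 1 in all 3 libraries, and the median is 4.95 for 3'RR, 3.14 for 3'PAL and 0.909 for hs3b-hs4.

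In the fit of both states together, 20 of the 28 members rose in the 3'RR deletion against wild-type (edgeR's quasi-likelihood test, adjusted p under 0.05), where 0.922% of all genes rose. In the 3'PAL deletion 15 rose, where 0.346% of all genes rose. In the hs3b-hs4 deletion 1 rose, Slc4a1 (log2 fold change 1.79 ± 0.20, adjusted p = 0.029), where 0.0746% of all genes rose, and 15 had an unadjusted p under 0.05. No member fell in any of these comparisons by edgeR or by DESeq2, and every edgeR estimate was above 0. The median log2 fold changes of the members were 3.62, 3.63 and 1.58 in the 3'RR, 3'PAL and hs3b-hs4 deletions, and those of all genes 0.05, 0.02 and 0.04. The fit takes a genotype's change as equal in both states, but most members other than the globins had few counts after stimulation. Their estimates rest mainly on the resting libraries, 1 per genotype. Sptb in 3'RR was 16.7 times wild-type at rest and 1.71 [0.658 to 4.77] times after stimulation. The summed globins in 3'RR were higher in both states, at 4.19 and 15.2 times. Without the wild-type resting library, 2 members passed for 3'RR (Hba-a2 and Hbb-bt) and none for 3'PAL or hs3b-hs4 (9 and 5 higher and 0 and 2 lower at an unadjusted p under 0.05 in edgeR), so most of these calls were not made without that library. In that fit the median log2 fold changes of the members were 1.51, 1.82 and 0.01 in 3'RR, 3'PAL and hs3b-hs4, with larger standard errors. Those of the 4 globins, Alas2 and Ermap were larger than in the fit of all libraries in each deletion, with Hbb-bs at 3.56 ± 0.62 in 3'RR (adjusted p = 0.074) and 4.33 ± 0.64 in 3'PAL (adjusted p = 0.14), and those of the other 22 were smaller. The spread in the fit of all libraries comes from the additive model with 3 residual degrees of freedom, since no genotype and state has a second library. The fit without the wild-type resting library has fewer. In it the stimulated library alone stands for wild-type, and that library had 0 counts of Ermap.

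Slc4a1 gave the lowest adjusted p in both larger comparisons. Its log2 fold change was 4.43 ± 0.21 in 3'RR (adjusted p = 0.00027) and 4.73 ± 0.21 in 3'PAL (adjusted p = 0.00047). Epb4.2, Aqp1, Kel and Rhag followed, with log2 fold changes of 4.47 to 5.57 in 3'RR and 4.79 to 5.53 in 3'PAL. The 4 globins passed in both, with log2 fold changes of 2.75 to 3.37 in 3'RR and 3.42 to 3.61 in 3'PAL. Ank1, Car2, Epor, Fech, Gata1, Hemgn, Klf1 and Tspan33 passed in neither, and Car1, Cldn13, Rhd, Sptb and Tal1 passed in 3'RR and not in 3'PAL. Whether the 3'RR and 3'PAL deletions differ in those 5 genes was not tested.

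Both deletions were also set against the hs3b-hs4 deletion, a comparison added after the values had been seen and one that does not use the wild-type resting library in its contrast. Against hs3b-hs4, 10 of the 28 members were higher in 3'RR, where 0.658% of all genes were. In 3'PAL 6 were higher, where 0.122% of all genes were. Slc4a1, Epb4.2, Aqp1, Kel, Rhag and Trim10 passed in both, with Slc4a1 at 2.65 ± 0.19 (adjusted p = 0.001) and 2.94 ± 0.19 (adjusted p = 0.01) on the log2 scale. No globin passed by edgeR or by DESeq2, 1 and 4 of the 4 had an unadjusted p under 0.05, and Hbb-bs gave 1.04 ± 0.48 (adjusted p = 0.45) and 1.80 ± 0.49 (adjusted p = 0.41). In the fit without the wild-type resting library Slc4a1 gave 2.65 and 2.95, and Hbb-bs 0.95 and 1.72, on the log2 scale. At rest the median ratio to the hs3b-hs4 library was 6.21 for 3'RR (range 1.15 for Hba-a2 to 30.6 for Car1) and 6.84 for 3'PAL (1.85 for Hba-a2 to 11.3 for Aqp1). The 2 comparisons share the hs3b-hs4 libraries.

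In the stimulated libraries few members kept enough counts to be read across genotypes. The summed globins were 15.2 [13.4 to 17.2] times the wild-type level in 3'RR, 4.21 [3.69 to 4.82] in hs3b-hs4 and 23.4 [20.8 to 26.5] in 3'PAL. The stimulated wild-type library was thus the lowest in globins, as the resting one was, although these are separate libraries. Alas2, on 10 wild-type counts, had ratios of 5.80 [2.93 to 12.8] in 3'RR, 2.01 [0.879 to 4.87] in hs3b-hs4 and 11.8 [6.21 to 25.3] in 3'PAL. Car2 had ratios of 2.39, 2.50 and 1.16. Tspan33 and Ank1 had another order, with ratios of 2.57 [1.65 to 4.08] and 2.97 [1.70 to 5.43] in hs3b-hs4, 2.34 [1.51 to 3.72] and 2.71 [1.55 to 4.94] in 3'PAL, and intervals that held 1 in 3'RR.

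Other genes of the lineage moved with the members to different degrees. Of 22 other red cell membrane genes, 17 fell and 2 rose with stimulation (34.1 and 35.7% of all genes did), with the urea transporter Slc14a1 and the pointed-end actin capping protein Tmod1 among the genes with the lowest adjusted p. The 2 that rose were Gypc and the transferrin receptor Tfrc, which were named after their values were seen. In the 3'RR deletion 4 of the 22 rose, among them Dmtn, Tmod1 and Tspo2, and in 3'PAL 2 rose, among them Tmod1, likewise named after their values were seen. None passed in hs3b-hs4 by edgeR or by DESeq2, and 4 had an unadjusted p under 0.05 in edgeR.

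Of 13 other genes of haem synthesis, 4 fell and 4 rose with stimulation, close to the shares of all genes. The iron importer of mitochondria Slc25a37 fell (log2 fold change -2.39 ± 0.23), and Tmem14c and Alas1, the enzyme form used outside the red cell lineage, rose by 1.13 and 0.71 on the log2 scale. Cpox also rose and was named after its values were seen. None of the 13 passed in any deletion by edgeR or by DESeq2, and 0, 1 and 3 had an unadjusted p under 0.05 in 3'RR, hs3b-hs4 and 3'PAL in edgeR. Of 20 genes of reticulocyte maturation and red cell enzymes, 15 fell and 1 rose (Hk1, named after its value was seen). The ubiquitin-conjugating enzyme Ube2l6 stood at 18.2, 61.9, 42.9 and 90.0 CPM at rest. It was ordered like the globins, with hs3b-hs4 between wild-type and 3'RR. Of 20 other erythroid regulators tested, 13 fell and 4 rose with stimulation, and Sox6 alone rose in a deletion, that of the 3'RR (log2 fold change 4.27 ± 0.70, adjusted p = 0.032). Those that rose with stimulation were Bcl2l1, E2f2, Gfi1b and Stat5a, and they and Sox6 were named after their values were seen.

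Markers of other spleen cells did not all move with the members. The 14 red pulp macrophage markers, all detected in every resting library, summed to 406, 1650, 696 and 349 CPM at rest. They were thus highest in 3'RR and lowest in 3'PAL, the library richest in erythroid RNA. In the 3'RR deletion 9 of the 14 rose, where 0.922% of all genes rose, among them Vcam1 (58.0, 299, 100 and 50.2 CPM). None passed in hs3b-hs4 or 3'PAL by edgeR or by DESeq2, and 9 and 0 had an unadjusted p under 0.05 in edgeR. The 12 platelet and megakaryocyte markers summed to 60.5, 92.1, 30.5 and 22.8 CPM, also lowest in 3'PAL, and all 12 were detected at rest. The 9 T cell markers summed to 32.0, 55.2, 64.7 and 36.0 CPM, and the 10 neutrophil markers to 0.410, 3.90, 0.925 and 1.14 CPM, with 6, 1, 7 and 2 of the 10 at 0. With stimulation, 14 of 14 macrophage, 11 of 11 platelet, 1 of 1 neutrophil, 3 of 5 T cell and 8 of 11 B cell markers tested fell. Of all genes tested, 34.1% fell. The part of these cells in the differences of the members between states was not tested. Between genotypes at rest, summed CPM was compared with the wild-type level. In 3'PAL the globins were at 6.83 times, the 24 other members at 13.3 times and the macrophage markers at 0.859 times. In 3'RR they were at 4.19, 10.8 and 4.06 times. The part of these cells in the differences between genotypes was not tested either.

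**Figure D5:**
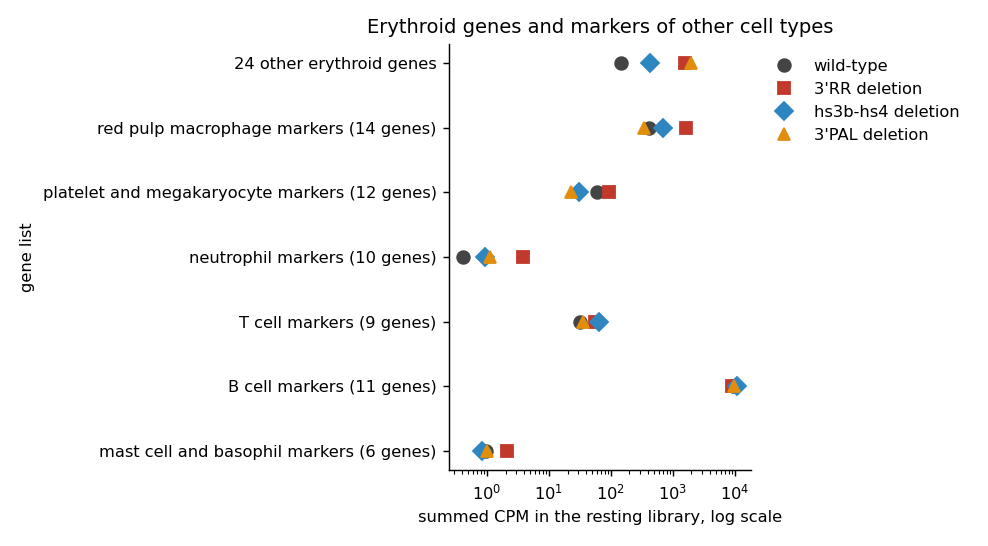
Summed CPM (log axis) in the 4 resting libraries of the 24 erythroid genes that are not globins and of marker lists for other cell types, 1 library per symbol. Erythroid genes are high in 3'RR and 3'PAL, whereas red pulp macrophage markers run from 349 CPM in 3'PAL to 1650 CPM in 3'RR.

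Tmcc2 offered a view below the level of the gene, since its transcripts were estimated separately by kallisto. It encodes a coiled-coil membrane protein and had 83, 3180, 482 and 3837 gene counts at rest. Transcripts ENSMUST00000138717 (4004 bases) and ENSMUST00000142609 (2769 bases) start inside the gene, next to the window printed above, and together held 80.0, 86.5, 80.4 and 90.8% of its estimated counts at rest. The shorter held 11.0, 56.9, 30.9 and 60.8% of the total at rest, and the longer 69.0, 29.6, 49.6 and 30.0%. After stimulation the shorter was at 0 in 3 libraries and at 10.2% in 3'PAL, on few counts. The shorter form was therefore the main one in the libraries with the most Tmcc2 and the minor one in the others.

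Genes outside the list were ranked by their likeness to the summed members, as Pearson's r of log2(CPM + 1) over the 8 libraries among 9325 genes that reached 10 CPM. Among the 8 highest were Map1lc3b (r = 0.995), Arrdc1, D5Ertd579e, Selo, Rgs14, Spns2 and Zzef1. The 8 points fall into a resting and a stimulated cluster, so a high r describes mainly the difference between the states. None of the genes named here changed by more than 2-fold between resting genotypes, and Map1lc3b stood at 126, 149, 146 and 154 CPM.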

How the data were processed

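The main input was the deposited table of raw counts per gene, for which the submitters' processing notes name STAR 2.4.0a, the build GRCm38 or mm10, and featureCounts from Subread 1.4.6-p1. The deposited transcript tables hold estimated counts and TPM from kallisto 0.42.3, per the same notes. Annotation version and strand setting are not given in these sources, so overlapping and antisense genes may share counts. Per the labels, libraries were stranded and depleted of ribosomal RNA.

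A row with no gene name (0.0062 to 0.0342% of counts) was dropped. Counts were scaled by TMM and filtered by filterByExpr in edgeR 4.0.16 (R 4.3.3). State and genotype were fitted together in all 8 libraries by edgeR's quasi-likelihood test, which takes a genotype's change as equal in both states, with Benjamini-Hochberg adjustment over all 14744 genes and a threshold of 0.05 (biological coefficient of variation 16%). No genotype and state has a second library, so P values measure the departure of the libraries from the additive fit, moderated over genes. They do not measure the spread between pools of the same genotype and state. The script was tested on simulated data. Within a state, ratios of TMM-scaled counts have no test, and their intervals are exact conditional binomial ones. kallisto counts were summed per gene and rounded for the fit. DESeq2 1.42.0, other scalings, no filter, kallisto counts and leaving out 1 genotype at a time were alternatives.

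The members and the other gene lists were chosen with earlier results of these data known. All members are named, with up to 4 genes of each other list by adjusted p for stimulation and the 8 genes most like the summed members, though some genes of these lists are not reported here. The comparisons with hs3b-hs4 and the fit without the wild-type resting library were added after values had been seen, and the shares at least 2-fold higher were then taken over all genes tested, with no minimum CPM.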

Additional observations from a re-analysis of the deposited data

Results flagged for a closer look

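The embryonic beta-like globin gene Hbb-bh1 (chr7:103841636-103843164, minus strand), which is no member of the list, had 67 counts in the stimulated 3'RR library and 30 in the stimulated hs3b-hs4 library. It had 0 in the stimulated wild-type and 3'PAL libraries and 0, 3, 0 and 1 at rest (wild-type, 3'RR, hs3b-hs4, 3'PAL). Attention was drawn to it because these counts lie above the wild-type ones and above the 3 counts that a count of 0 allows. The kallisto estimates in the same stimulated libraries were 64 and 27. The adult globins went the other way in these libraries, with lower counts after stimulation than at rest. No explanation was tested.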

How the results depend on the processing

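All 28 members fell with stimulation under every setting that tested 28, with 26 of 27 tested without the 3'RR or the 3'PAL genotype and 23 of 23 with state as the only term (range 26 to 28 when leaving out 1 genotype), and 22 of them passed in every setting. The calls between genotypes were less stable. Members higher in the 3'RR deletion numbered 20 as reported, 13 with library size alone, 13 by DESeq2, 10 with kallisto estimated counts, 14 to 19 when leaving out 1 genotype and 2 without the wild-type resting library. Those higher in 3'PAL numbered 15 as reported, 24 without a filter, 9 with kallisto, 9 (without 3'RR) to 10 when leaving out 1 genotype and 0 without the wild-type resting library. Those higher in hs3b-hs4 numbered 1 as reported, 3 by DESeq2, 10 without a filter, 0 with kallisto, 0 (without 3'RR) to 1 when leaving out 1 genotype and 0 without the wild-type resting library. Against hs3b-hs4, members higher in 3'RR numbered 10 as reported, 6 by DESeq2 and 8 to 13 when leaving out 1 genotype. Against hs3b-hs4, those higher in 3'PAL numbered 6 as reported, 17 without a filter, 3 with kallisto, 3 (without 3'RR) to 9 when leaving out 1 genotype and 10 without the wild-type resting library. The share of all genes called under each alternative setting is not given here. These counts alone therefore do not tell a change in the members from a change in the calls over all genes. The causes were not tested. Hbb-bt for 3'RR, Kel and Slc4a1 for 3'RR against hs3b-hs4 and Slc4a1 for 3'PAL against hs3b-hs4 passed in every setting run.

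Resting globin ratios to wild-type were, with library size alone, 3.95 (3'RR), 3.38 (hs3b-hs4) and 5.99 (3'PAL), with the members left out of the library size 4.00, 3.41 and 6.10, and with kallisto 4.30 for 3'RR. The ratios of the other 24 members in the same 3 settings were 10.2, 10.3 and 9.68 for 3'RR and 11.6, 11.9 and 11.8 for 3'PAL, with 2.71 by kallisto for hs3b-hs4. Globins after stimulation, as percent of resting, were 0.300, 1.10, 0.377 and 1.22 with library size alone and 0.395, 1.31, 0.450 and 1.28 with kallisto (wild-type, 3'RR, hs3b-hs4, 3'PAL). Other members per 1000 globin counts by kallisto were 56.5, 127, 44.5 and 97.1. The order of the genotypes in each set was as reported, except that with library size alone the globin share left after stimulation was higher in 3'PAL than in 3'RR.

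Estimates that changed sign did not pass in either fit. For hs3b-hs4, log2 changes turned to -0.74 (Tal1) and -1.54 (Rhd) by DESeq2 and to -0.27 (Car1) and -0.013 (Ermap) with kallisto. Without the wild-type resting library, those for hs3b-hs4 were -3.24 (Gata1), -3.76 (Car1), -1.95 (Hemgn), -2.93 (Tal1), -3.10 (Rhd), -2.85 (Cldn13), -0.33 (Aqp1), -3.28 (Add2), -2.35 (Klf1), -2.82 (Epor), -0.12 (Sptb), -1.01 (Trim10), -0.28 (Rhag) and -0.31 (Fech). In the same fit they were -0.69 (Gata1) and -0.27 (Epor) for 3'RR and -0.86 (Gata1), -0.41 (Car1), -0.088 (Tal1) and -0.62 (Epor) for 3'PAL. In that fit the stimulated library alone stands for wild-type. It held 0 counts of Car1, Cldn13, Aqp1 and Rhag and 1 to 4 of Gata1, Add2, Tal1, Epor, Trim10, Klf1 and Rhd. For these genes the values do not measure the size or direction of a change. Car1 and Cldn13 were at 0 in every stimulated library, so no change from wild-type can be estimated for them there. Stimulated and resting libraries were paired by genotype in the reported fit, and the fit with state as the only term is the unpaired one. For the genotypes, the labels give no replicate numbers to pair by. Members at 4 to 9 wild-type counts at rest (Car1, Cldn13, Epor, Add2, Rhag and Gata1) have ratios limited by counting error.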
